A study of Mus musculus with 4 samples.

Results

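The genes of transforming growth factor beta (TGF-beta) and bone morphogenetic protein (BMP) signalling were examined in macrophages sorted from mouse ear dermis, from the ligands and the proteins that hold them latent to the receptors, the SMAD transcription factors and their targets. The set had 37 genes, chosen by symbol, and all 37 were found among the 22180 genes of the array, each as 1 transcript cluster with a single gene symbol. RNA was measured on 4 Affymetrix whole-transcript arrays, 2 of CX3CR1low and 2 of CX3CR1bright macrophages. All animals were untreated adult C57Bl/6 mice of genotype Cx3cr1+/gfp, which carry GFP in 1 allele of the gene for the fractalkine receptor CX3CR1 and keep a single intact copy, so both subsets share this genotype and there was no wild-type sample. Each array held RNA from sorted cells of 3 to 6 pooled mice, and each subset was sampled from 2 separate litters, so the values describe pools and not single animals.

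TGF-beta is secreted in a latent complex, bound to its own propeptide and held by latent TGF-beta binding proteins in the matrix or by the membrane proteins LRRC32 and NRROS on cells, and integrins and proteases release it. A released ligand joins a type II and a type I receptor kinase. The type I receptor phosphorylates SMAD2 and SMAD3 for TGF-beta and activin, or SMAD1, SMAD5 and SMAD9 for BMP, which enter the nucleus with SMAD4. SMAD6 and SMAD7 are induced by the pathway and inhibit it. In the mouse, TGF-beta is known to be needed by Langerhans cells of the epidermis and by microglia, the macrophages of the brain.

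Levels are log2 values from RMA, a procedure that corrects background, equalises arrays and summarises probes, and differences are CX3CR1bright minus CX3CR1low on that scale. The array medians were 3.65 to 3.68, and a level near them can be background. Cx3cr1, the gene behind the gate, stood at 3.63 and 3.60 on CX3CR1low replicates 1 and 2 and at 8.42 and 8.44 on CX3CR1bright replicates 1 and 2, which is the order the labels give. Of 10 macrophage markers 9 were in the table, and all 9 were above background by the filter used here. On CX3CR1bright replicates 1 and 2 keratinocyte markers had a median of 0.38 and 1.72 above the CX3CR1low mean, fibroblast markers of 0.94 and 0.88, Langerhans cell markers of 0.59 and 2.16, and conventional dendritic cell markers of 1.83 and 1.52. Within the Langerhans cell list, Epcam stood at 4.53 and 6.73 on these arrays and Cdh1 at 6.47 and 9.24. Cd207 stood at 6.97 and 7.54, Kcnn4 at 9.86 and 10.27, Mfge8 at 6.79 and 7.19 and Il1r2 at 8.18 and 7.98. Of the 6 Langerhans cell markers, 5 had a positive difference. Mfge8 had a negative difference of -0.45 and was lower on both CX3CR1bright arrays than on either CX3CR1low array. Summed on the linear scale and expressed as log2, keratinocyte markers ran from 9.84 to 10.35 in CX3CR1low and from 10.73 to 11.91 in CX3CR1bright, and fibroblast markers from 10.29 to 10.74 and from 11.29 to 11.50. All 11 keratinocyte markers and all 10 fibroblast markers in the table had a positive difference, and 0 of either list were below the array median on all 4 arrays. Fewer cells of a type and less RNA per cell cannot be told apart in such samples. The part of these cells in the differences of the pathway genes was not tested.

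The type I receptor gene Tgfbr1, the inhibitory SMAD gene Smad7, the co-repressor gene Skil, the ligand gene Tgfb3 and the target genes Id1 and Id3 stood higher on both CX3CR1bright arrays than on either CX3CR1low array, by 0.66 to 1.37. The main ligand gene of leukocytes, Tgfb1, the type II receptor gene Tgfbr2, the co-receptor gene Eng and the BMP transducer gene Smad1 stood lower on both, with differences of -0.50 to -0.73. These 10 genes, against 18.8% of all tested genes, had an unadjusted p under 0.05 (limma), 6 with a positive and 4 with a negative difference. None of the 34 members tested passed the threshold of 0.05 after Benjamini-Hochberg adjustment over 13133 genes (limma). The smallest adjusted p was 0.0913.

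That threshold was passed by 0.137% of all tested genes, 18 in number. An unadjusted p under 0.05 with a positive difference was found for 17.6% of the tested members and 7.03% of all tested genes, and with a negative difference for 11.8% of both. At least 2-fold higher without overlap between the subsets were 4 members, Tgfb3, Tgfbr1, Id1 and Id3, which is 11.8% against 2.94% of tested genes, and 0 members were as much lower, against 2.89%. In either direction this was met by 5.83% of tested genes. Without CX3CR1bright replicate 1 it was met by 7 members, with Acvr1b, Eng and Smad7 added, and by 9.52% of tested genes. Without CX3CR1low replicate 1 it was met by 3 members, Inhba, Tgfbr1 and Id1, and by 7.79% of tested genes. Without CX3CR1bright replicate 2 it was met by 3 members, Inhba, Tgfbr1 and Id3, and by 6.43% of tested genes. Without the 2-fold limit, 11 members lay above and 8 below on both CX3CR1bright arrays, or 32.4% and 23.5%, against 18.9% and 31.5% of tested genes. The median difference was 0.22 over the members tested and -0.070 over all tested genes. The member median was 0.066 without CX3CR1bright replicate 2 and 0.096 without CX3CR1low replicate 1. The other 3 members, Bmpr1a, Acvr2b and Smad9, did not reach the filter on dim genes and stayed untested. Smad6 passed the filter through its CX3CR1bright arrays alone, so its difference was favoured by the filter.

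**Figure D1:**
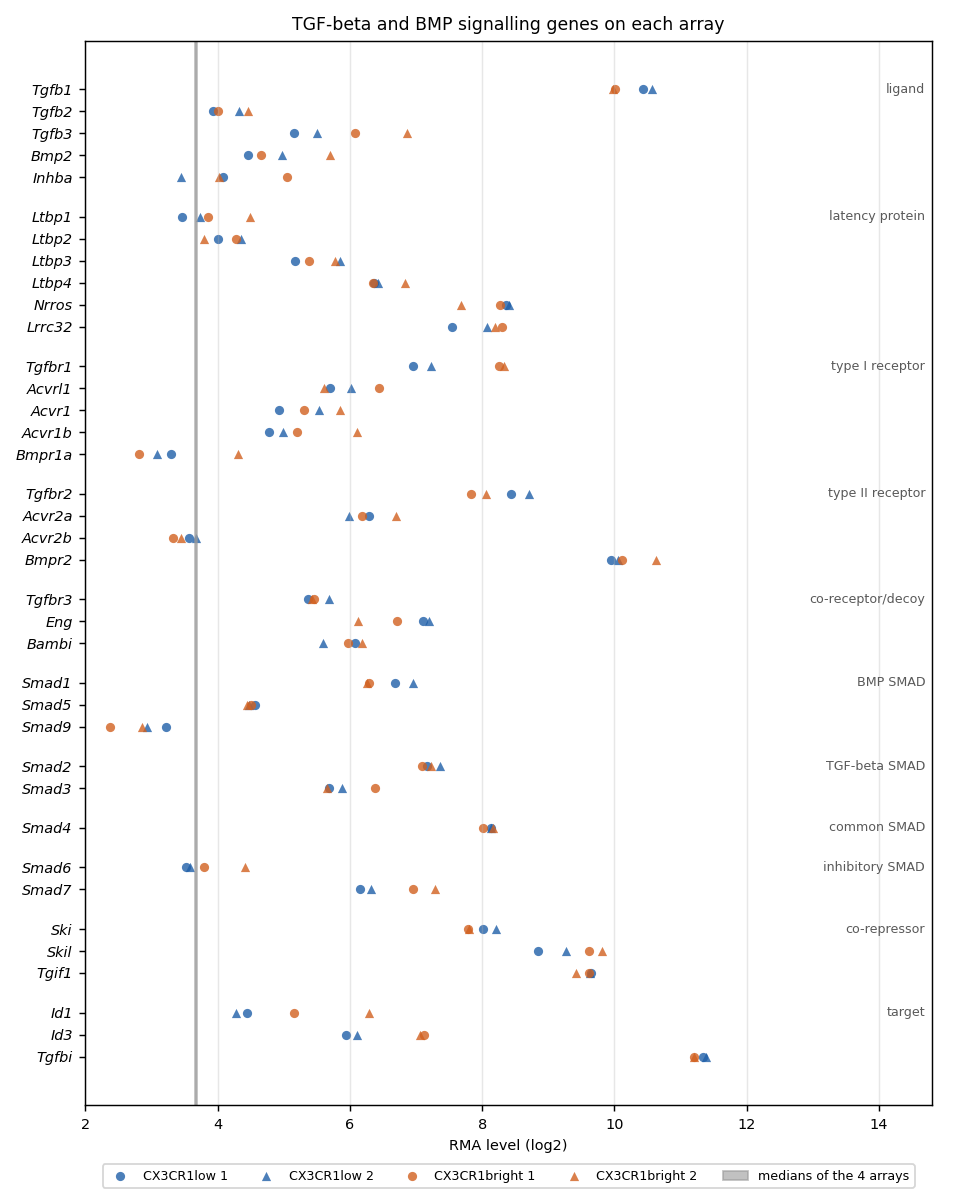
RMA level (x axis, log2) of all 37 genes (rows, by role) on the 2 CX3CR1low arrays (blue) and the 2 CX3CR1bright arrays (orange), with circles for replicate 1, triangles for replicate 2 and a grey band for the array medians of 3.65 to 3.68. The colours separate for Tgfbr1, Id3 and Smad7 with CX3CR1bright to the right, and for Tgfb1, Tgfbr2, Eng and Smad1 with CX3CR1bright to the left.

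**Figure D2:**
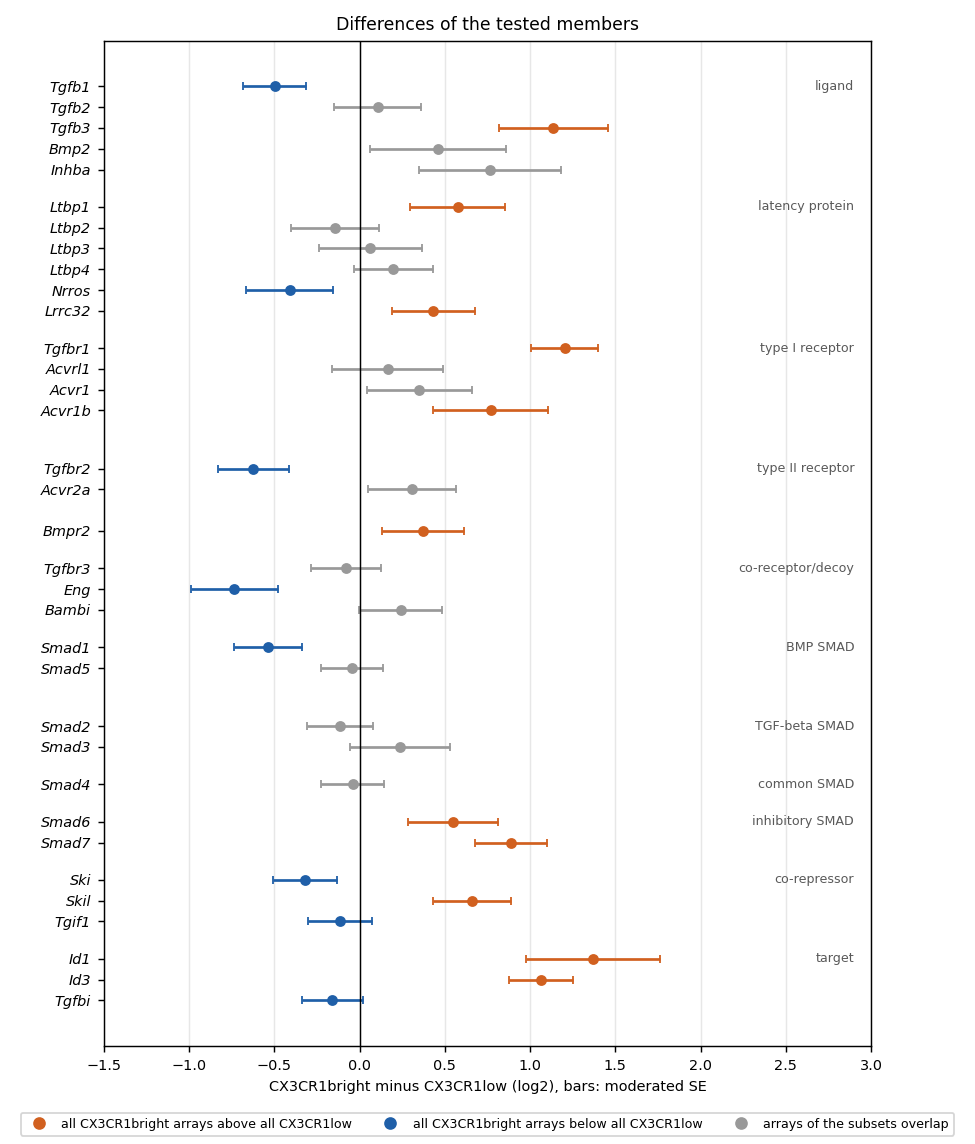
Difference, CX3CR1bright minus CX3CR1low (x axis, log2), of the 34 members tested, with bars of 1 moderated SE; orange and blue mark genes whose arrays do not overlap between subsets and grey those that do. Differences ran from -0.73 for Eng to 1.37 for Id1.

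Among the ligands, Tgfb1 (transcript cluster 17475342) encodes the isoform that leukocytes mostly make. It stood at 10.43 and 10.56 on the CX3CR1low arrays and at 10.01 and 9.98 on the CX3CR1bright arrays. The CX3CR1bright levels lay below both CX3CR1low levels, with a difference of -0.50 ± 0.18 (SE, n = 2 per subset), 1.41-fold lower (limma, adjusted p = 0.240).

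Tgfb3 (cluster 17282743), an isoform best known from mesenchymal and epithelial tissue, went the other way. It stood at 5.15 and 5.51 on the CX3CR1low arrays and at 6.07 and 6.86 on the CX3CR1bright arrays. All 4 values were above background, the subsets did not overlap, and the difference was 1.14 ± 0.32, 2.20-fold (limma, adjusted p = 0.170). CX3CR1bright replicate 2, where keratinocyte markers were highest, also had the highest Tgfb3 level, and without that array the difference was 0.74.

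The remaining ligand genes did not separate the subsets. Tgfb2 stood at 3.93 to 4.46 over the 4 arrays, near background in both subsets, with a difference of 0.11. Bmp2, a BMP ligand, differed by 0.46 ± 0.40, with its highest level, 5.70, on CX3CR1bright replicate 2 and 4.46 to 4.97 on the other arrays. Inhba, which encodes the subunit of activin A, stood at 4.09 and 3.44 against 5.05 and 4.01, a difference of 0.76 ± 0.41, and its highest level was on CX3CR1bright replicate 1. Of the 5 ligand genes 1 lay above and 1 below without overlap, or 20.0% each, against 18.9% and 31.5% of all tested genes.

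The latency proteins showed small and mixed differences, from -0.41 to 0.57. Nrros, which anchors latent TGF-beta on myeloid cells and microglia, stood at 8.36 and 8.41 on the CX3CR1low arrays and at 8.27 and 7.68 on the CX3CR1bright arrays, a difference of -0.41 ± 0.26 (limma, adjusted p = 0.454). Most of that difference came from CX3CR1bright replicate 2, and it was -0.11 without that array. Lrrc32, the anchor known from regulatory T cells and platelets, stood at 7.54 and 8.08 against 8.29 and 8.19, a difference of 0.43 ± 0.24 (limma, adjusted p = 0.409). Both anchors were well above the array medians on all 4 arrays, and for both the gap to the nearest array of the other subset was small.

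Of the matrix binding proteins, Ltbp1 stood at 3.46 and 3.74 against 3.85 and 4.49, close to background, with a difference of 0.57 ± 0.28. Ltbp2, Ltbp3 and Ltbp4 differed by -0.14, 0.06 and 0.20, and their arrays overlapped between the subsets. These proteins are made mainly by fibroblasts and other matrix-producing cells, whose markers lay higher on both CX3CR1bright arrays. Of the 6 latency genes 2 lay above and 1 below without overlap, or 33.3% and 16.7%, against 18.9% and 31.5% of all tested genes.

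Tgfbr1 (cluster 17413915), the type I receptor kinase that TGF-beta signals through, had the smallest p of the set. It stood at 6.96 and 7.22 on the CX3CR1low arrays and at 8.26 and 8.33 on the CX3CR1bright arrays. The replicates of each subset lay close together and far from the other subset, with a difference of 1.20 ± 0.20, 2.30-fold (limma, adjusted p = 0.0913). Its adjusted p was 0.0445 with a stricter filter on dim genes and 0.0347 with a variance prior that follows intensity, settings under which 0.978% and 0.853% of tested genes were past the threshold in that direction.

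Tgfbr2 (cluster 17531987), the type II receptor that binds TGF-beta and activates TGFBR1, stood at 8.43 and 8.71 on the CX3CR1low arrays and at 7.84 and 8.06 on the CX3CR1bright arrays. The CX3CR1bright arrays were the lower ones, by -0.62 ± 0.21 or 1.54-fold (limma, adjusted p = 0.213). Within arrays, the log2 ratio of Tgfbr1 to Tgfbr2 relative to the CX3CR1low mean was 0.011 and -0.011 on the CX3CR1low arrays and 1.90 and 1.75 on the CX3CR1bright arrays. That ratio was 1.83 higher in CX3CR1bright, without overlap. An exact permutation test gave a two-sided p of 0.333, the smallest that 2 against 2 arrays allow. As Tgfbr1 lay above and Tgfbr2 below on both CX3CR1bright arrays, the ratio had to separate, so this p was fixed by those orders and adds no support. The kinases of the TGF-beta receptor thus had differences of opposite sign, and a ratio within arrays shows unequal differences, not which gene differed.

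The promoter windows of these receptor genes and of Id3 are shown because they had the smallest p among the 26 members whose windows were examined. That of Smad6 is shown because, of the windows examined, it holds a palindromic SMAD motif. Smad7, with a smaller p than Tgfbr2, was not among the members examined. This choice was made after values and sequences were seen. The windows come from the RefSeq table for build GRCm38.p6, which was matched by symbol and holds windows for 26 of the 37 members. Each window has 250 bases before and 50 after an annotated start, on the coding strand, 5′ to 3′. Capitals mark matches on either strand to CAGAC, a short box that SMAD3 and SMAD4 bind, to GGCGCC, a GC-rich element of BMP SMADs, or to the palindrome GTCTAGAC. The first window listed for Tgfbr1 is chr4:47352972-47353271 (plus strand), and a second annotated start was not printed. Tgfbr2 is at chr9:116175314-116175613 (minus strand), Id3 at chr4:136143572-136143871 (plus strand) and Smad6 at chr9:64022010-64022309 (minus strand).
Tgfbr1: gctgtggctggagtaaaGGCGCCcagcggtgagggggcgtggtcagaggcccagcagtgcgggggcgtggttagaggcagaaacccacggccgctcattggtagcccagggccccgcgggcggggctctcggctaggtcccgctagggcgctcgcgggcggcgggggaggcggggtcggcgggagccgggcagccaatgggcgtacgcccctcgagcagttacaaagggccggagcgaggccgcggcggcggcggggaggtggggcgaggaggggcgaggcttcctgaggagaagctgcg
Tgfbr2: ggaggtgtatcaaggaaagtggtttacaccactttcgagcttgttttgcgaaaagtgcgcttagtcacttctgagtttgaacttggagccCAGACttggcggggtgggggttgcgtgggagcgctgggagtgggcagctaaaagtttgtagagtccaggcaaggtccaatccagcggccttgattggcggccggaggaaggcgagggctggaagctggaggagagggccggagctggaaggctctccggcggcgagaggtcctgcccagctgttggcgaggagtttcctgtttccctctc
Id3: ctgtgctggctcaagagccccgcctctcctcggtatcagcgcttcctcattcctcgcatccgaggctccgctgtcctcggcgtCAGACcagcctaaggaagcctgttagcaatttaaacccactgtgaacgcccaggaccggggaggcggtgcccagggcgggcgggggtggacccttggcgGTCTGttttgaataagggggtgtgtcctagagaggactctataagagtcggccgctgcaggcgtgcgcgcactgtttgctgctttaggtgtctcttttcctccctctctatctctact
Smad6: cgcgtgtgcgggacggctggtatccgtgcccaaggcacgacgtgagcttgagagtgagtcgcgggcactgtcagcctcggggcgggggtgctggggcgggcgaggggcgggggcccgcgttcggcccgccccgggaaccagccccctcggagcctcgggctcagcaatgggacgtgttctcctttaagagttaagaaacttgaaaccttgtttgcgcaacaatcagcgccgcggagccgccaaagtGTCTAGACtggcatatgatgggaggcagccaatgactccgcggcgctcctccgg

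The Id3 window held 2 matches to CAGAC, the Tgfbr2 window 1 match to it, the printed Tgfbr1 window 1 match to GGCGCC and the Smad6 window the palindrome. No match of these 3 motifs overlapped another in these windows. Of 32851 promoter windows of the same length, from which chromosome 18 was not left out, 49.6% held CAGAC, 11.9% GGCGCC and 0.213% the palindrome. Of the 36 member windows examined, 17 held CAGAC, 11 held GGCGCC and 1, that of Smad6, held the palindrome. Some windows of 1 gene overlap and share a match, as for Ltbp4 and Smad5. By gene, 14 of the 26 had a window with CAGAC, 9 with GGCGCC and 1 with the palindrome. The GC content of the printed windows ran from 59.0% for Tgfbr2 to 74.7% for Tgfbr1. A match is a description of the letters and no evidence of binding.

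Among the other type I receptors, Acvr1b, which serves activin, stood at 4.77 and 4.99 against 5.20 and 6.10, a difference of 0.77 ± 0.34 (limma, adjusted p = 0.303). Its highest level was on CX3CR1bright replicate 2, and without that array the difference was 0.32. Acvrl1, an endothelial receptor for BMP9 that TGF-beta can also use, and Acvr1, a BMP receptor, differed by 0.16 ± 0.33 and 0.35 ± 0.31, with arrays that overlapped. Bmpr1a stood at 2.82 to 4.31 over the 4 arrays, above its array median on 1 of them.

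Bmpr2, the main type II receptor for BMP, stood at 9.95 and 10.05 on the CX3CR1low arrays and at 10.11 and 10.63 on the CX3CR1bright arrays, a difference of 0.37 ± 0.24 (limma, adjusted p = 0.470). The activin type II receptor gene Acvr2a differed by 0.31 ± 0.26 with overlapping arrays, and Acvr2b stood at 3.33 to 3.67, at background. Of the 7 type I and type II receptor genes tested, Tgfbr2 was the single one with a negative difference.

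Eng (cluster 17369925), endoglin, a co-receptor that favours signalling through ACVRL1, stood at 7.10 and 7.19 on the CX3CR1low arrays and at 6.71 and 6.12 on the CX3CR1bright arrays. Both CX3CR1bright arrays were lower, by -0.73 ± 0.26 or 1.66-fold (limma, adjusted p = 0.222), and by -0.44 without CX3CR1bright replicate 2. Endoglin is also an endothelial gene. Of 10 endothelial markers, Tek, Emcn and Esam were below the array medians on all 4 arrays, 4 had a positive difference and the median difference was -0.019. Their summed level, as log2, ran from 7.74 to 8.22 in CX3CR1low and from 7.29 to 7.84 in CX3CR1bright. The endothelial cadherin gene Cdh5 stood at 6.10 and 7.09 against 5.71 and 4.07, lower on the same arrays as Eng. For every other endothelial marker of the list the arrays of the subsets overlapped. The part of endothelial RNA in the Eng difference was not tested.

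The accessory receptor gene Tgfbr3, betaglycan, differed by -0.078 ± 0.20, or by 0.028 after cyclic loess. Bambi, a decoy receptor without a kinase, differed by 0.24 ± 0.24. Both had arrays that overlapped between the subsets.

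Smad1 (cluster 17510735), which carries BMP signals, stood at 6.68 and 6.95 on the CX3CR1low arrays and at 6.29 and 6.25 on the CX3CR1bright arrays. The CX3CR1bright replicates were nearly equal and below both CX3CR1low arrays, with a difference of -0.54 ± 0.20, 1.45-fold lower (limma, adjusted p = 0.239). Its partner Smad5 differed by -0.044 ± 0.18, and Smad9 stood at 2.37 to 3.21, below the array medians on all 4 arrays.

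The transducers of the TGF-beta branch and the common SMAD did not separate the subsets. Smad2 differed by -0.11 ± 0.19, or by 0.0037 and 0.031 after quantile normalization and cyclic loess. Smad4 differed by -0.041 ± 0.18, or by 0.088 and 0.099 under the same scalings. Smad3 differed by 0.24 ± 0.29, with its highest level, 6.39, on CX3CR1bright replicate 1 and 5.66 on replicate 2.

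Smad7 (cluster 17351862), the inhibitor induced by TGF-beta, stood at 6.16 and 6.32 on the CX3CR1low arrays and at 6.96 and 7.29 on the CX3CR1bright arrays. The subsets did not overlap, and the difference was 0.89 ± 0.21, 1.85-fold (limma, adjusted p = 0.137). After cyclic loess it was 1.03.

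Smad6, which inhibits the BMP branch more strongly, stood at 3.52 and 3.59 on the CX3CR1low arrays, below the array medians, and at 3.79 and 4.41 on the CX3CR1bright arrays. The difference was 0.55 ± 0.26 (limma, adjusted p = 0.338), and the CX3CR1low side of it can be background.

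The co-repressors differed in direction. Skil (cluster 17396638), which encodes SnoN, a repressor of SMAD complexes and itself a TGF-beta target, stood at 8.85 and 9.26 on the CX3CR1low arrays and at 9.62 and 9.81 on the CX3CR1bright arrays. Both CX3CR1bright arrays were higher, by 0.66 ± 0.23 or 1.58-fold (limma, adjusted p = 0.218). Its relative Ski stood at 8.01 and 8.20 against 7.78 and 7.79, a difference of -0.32 ± 0.19 (limma, adjusted p = 0.430). Tgif1, a homeodomain repressor, differed by -0.12 ± 0.19, or by 0.017 and 0.0095 after quantile normalization and cyclic loess.

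The inhibitors of differentiation Id1 and Id3, helix-loop-helix proteins without a DNA-binding region, are classical targets of BMP signalling. Id3 (cluster 17420016) stood at 5.94 and 6.11 on the CX3CR1low arrays and at 7.12 and 7.06 on the CX3CR1bright arrays. The replicates of each subset differed little, and the difference was 1.07 ± 0.19, 2.09-fold (limma, adjusted p = 0.0966, or 0.0478 with the stricter filter).

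Id1 (cluster 17377778) had the largest difference of the tested members, but its CX3CR1bright replicates were far apart. It stood at 4.44 and 4.28 on the CX3CR1low arrays and at 5.16 and 6.29 on the CX3CR1bright arrays, a difference of 1.37 ± 0.39, 2.58-fold (limma, adjusted p = 0.176). Without CX3CR1bright replicate 2, the array with the highest keratinocyte and Langerhans cell markers, it was 0.80, and without CX3CR1bright replicate 1 it was 1.93 with an adjusted p of 0.0433 (limma), where 0.845% of tested genes were past the threshold in that direction. The other genes with a positive difference and an unadjusted p under 0.05 that were highest on replicate 2 were Tgfb3, Tgfbr1, Smad7 and Skil, while Id3 was highest on replicate 1.

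Tgfbi, which encodes a secreted matrix protein named for its induction by TGF-beta, stood at 11.34 and 11.39 on the CX3CR1low arrays and at 11.21 and 11.20 on the CX3CR1bright arrays. Its replicates were close, and the difference was -0.16 ± 0.18 (limma, adjusted p = 0.688). Of the 3 target genes, the BMP-responsive pair had positive differences, while the negative difference of Tgfbi was smaller than its SE.

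**Figure D3:**
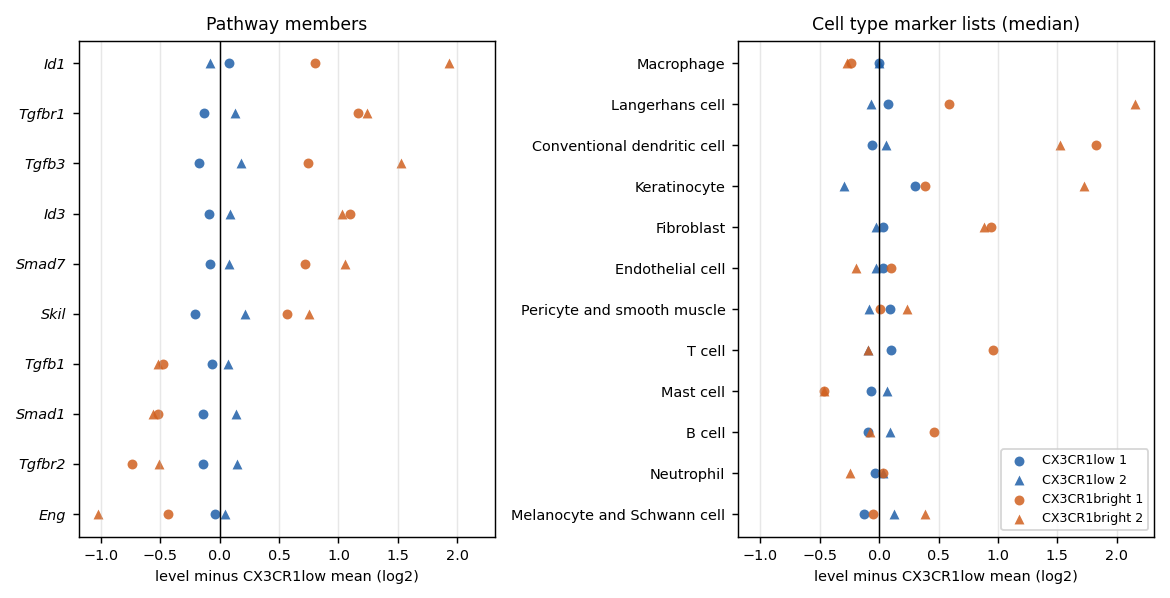
Level relative to the CX3CR1low mean (x axis, log2) on each array for the 10 members with an unadjusted p under 0.05 (left) and as the median of each cell type marker list (right), with CX3CR1low in blue, CX3CR1bright in orange, circles for replicate 1 and triangles for replicate 2. Id1 and Tgfb3 and the keratinocyte and Langerhans cell lists are higher on CX3CR1bright replicate 2 than on replicate 1, while Tgfbr1, Id3 and the fibroblast list lie close together on both.

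A wider list of 100 other genes of the pathway, written by role, had 65 tested genes, 29 too dim for the filter and 6 not analysed here. None passed the threshold (limma), the smallest adjusted p was 0.0819, and 14 genes with a positive and 3 with a negative difference had an unadjusted p under 0.05, or 21.5% and 4.62%, against 7.03% and 11.8% of all tested genes. At least 2-fold higher without overlap were 8 of them, or 12.3% against 2.94%, and 0 were as much lower, against 2.89%. Their median difference was 0.16. The 12 genes named from this list are those with the smallest p.

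Among proteins that release latent TGF-beta, the integrin subunits Itgb5 and Itgav stood higher on both CX3CR1bright arrays, while Itgb1 and Itgb3 overlapped between the subsets and Itgb6 and Itgb8 were too dim to test. Itgb5, the partner that forms the receptor alpha-v beta-5 with Itgav, stood at 6.22 and 6.83 on the CX3CR1low arrays and at 8.04 and 8.51 on the CX3CR1bright arrays. The subsets did not overlap, and the difference was 1.75 ± 0.30, 3.36-fold (limma, adjusted p = 0.0930). Itgav stood at 8.46 and 8.38 against 9.50 and 10.02, a difference of 1.34 ± 0.24 (limma, adjusted p = 0.0978). Both passed with the intensity trend, and Itgb5 also with the stricter filter.

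The membrane protease gene Mmp14 and the thrombospondin gene Thbs1, whose products can also activate latent TGF-beta, had positive differences of 1.02 ± 0.21 and 0.64 ± 0.18. Mmp9 and the proprotein convertase gene Furin, which cleaves the TGF-beta precursor, had negative ones of -0.99 ± 0.18 and -0.60 ± 0.19. These 4 genes were named for their small p, and in each the arrays of the subsets did not overlap. Of the 9 activator genes tested 4 lay above and 3 below without overlap, or 44.4% and 33.3%, against 18.9% and 31.5% of all tested genes. The difference was positive for 4 of the 9 and negative for 5, and it was positive for 42.5% of all tested genes.

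Pmepa1, a membrane protein that is induced by TGF-beta and sequesters SMAD2 and SMAD3, stood at 6.93 and 7.43 on the CX3CR1low arrays and at 8.60 and 8.90 on the CX3CR1bright arrays. Both CX3CR1bright arrays were higher, by 1.57 ± 0.25 or 2.98-fold (limma, adjusted p = 0.0913), and it passed with the stricter filter and with the intensity trend. With Smad7 and Skil it makes 3 genes of negative feedback whose CX3CR1bright levels lay above both CX3CR1low levels, a grouping chosen after their values were seen. Of all tested genes, 18.9% lay above in this way. Among the other inhibitors of the member set, Smad6 also lay above, Ski and Tgif1 lay below, and the arrays of Bambi overlapped.

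Col1a1, the collagen gene, stood at 6.91 and 7.12 against 8.38 and 8.31, a difference of 1.33 ± 0.19 (limma, adjusted p = 0.0819), and it is also 1 of the fibroblast markers. Htra1, a secreted protease that can cut TGF-beta ligands, and Fstl1, a secreted BMP antagonist, differed by 0.98 ± 0.19 and 0.87 ± 0.22. Both are genes that fibroblasts express, and fibroblast markers lay 0.94 and 0.88 above the CX3CR1low mean on the same arrays. The part of fibroblast RNA in these differences was not tested.

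Bmp7, a BMP ligand of epithelia, stood at 4.47 and 3.84 on the CX3CR1low arrays and at 5.27 and 6.60 on the CX3CR1bright arrays, a difference of 1.78 ± 0.49 (limma, adjusted p = 0.164). Like Id1 and Tgfb3 it was highest on CX3CR1bright replicate 2. The co-receptor gene Nrp1, neuropilin, which binds latent and active TGF-beta, stood at 9.49 and 9.48 against 8.81 and 8.65, a difference of -0.76 ± 0.18 (limma, adjusted p = 0.140).

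**Figure D4:**
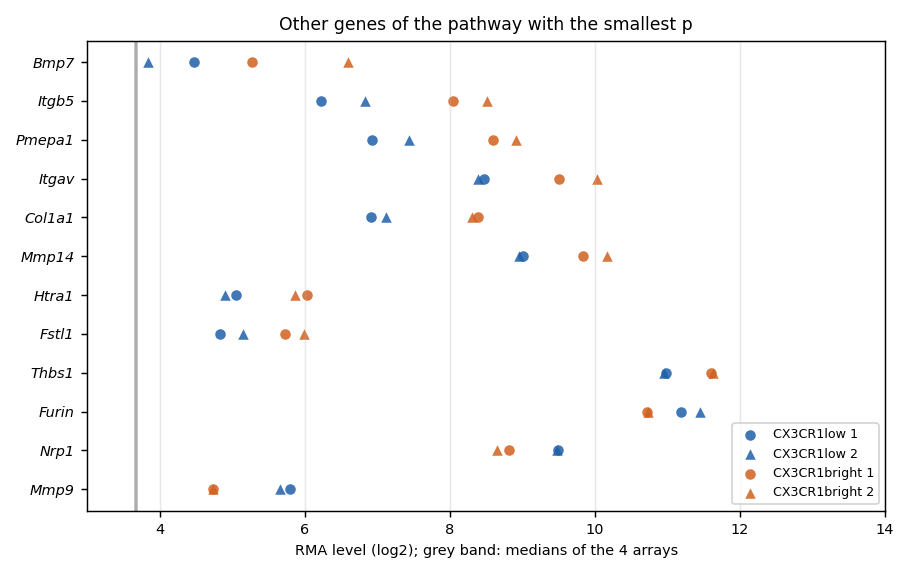
RMA level (x axis, log2) on each array of the 12 genes of the wider list with the smallest p, with CX3CR1low in blue, CX3CR1bright in orange, circles for replicate 1, triangles for replicate 2 and a grey band for the array medians. The CX3CR1bright arrays lie to the right for 9 genes, from Bmp7 to Thbs1, and to the left for Furin, Nrp1 and Mmp9.

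Genes that microglia are known to need TGF-beta for were mixed. Of 12 such genes 9 were tested, 6 with a positive and 3 with a negative difference, and none passed the threshold (limma). An unadjusted p under 0.05 was found for 3 of the 9, against 18.8% of all tested genes. The purinergic receptor gene P2ry12 stood at 7.68 and 7.72 on the CX3CR1low arrays and at 7.26 and 7.17 on the CX3CR1bright arrays. The matrix protein gene Sparc stood at 6.65 and 6.72 against 7.30 and 7.22, and the third gene was Tgfbr1 itself. P2ry12 was lower and Sparc higher on both CX3CR1bright arrays, and Sall1, a defining transcription factor of microglia, was below the array medians on all 4 arrays.

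**Figure D5:**
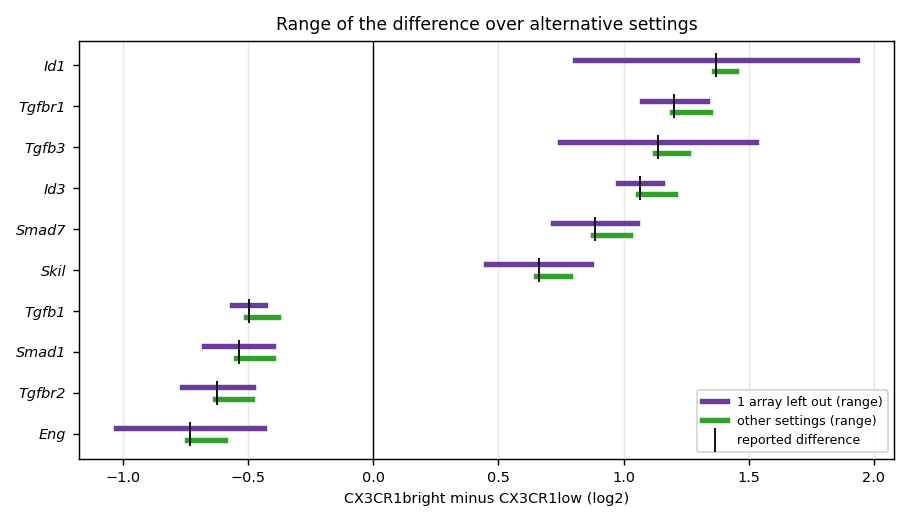
Difference, CX3CR1bright minus CX3CR1low (x axis, log2), of the 10 members with an unadjusted p under 0.05, with the reported value as a black tick, the range with each array left out in turn in purple and the range over the other settings in green. No range crosses 0, and the widest, that of Id1, runs from 0.80 to 1.93 with 1 array left out. The arrays of these 10 genes did not overlap between subsets, so the ranges in purple could not cross 0 and add no support.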

How the data were processed

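The deposited values are log2 levels. The submitters' processing notes name RMA and Affymetrix Expression Console 1.4, and the labels' protocols the WT Pico kit, which amplifies RNA before hybridisation. The sources used here do not give the genome build, and probe intensities were not used. Of 34390 transcript clusters, 23521 had 1 gene symbol in the platform annotation, 1814 several and 9055 none. The cluster with the highest mean stood for each of 22180 genes, and all sample columns were used.

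To be tested, a gene had to exceed the array's own median on at least 2 of 4 arrays, as 13133 did. The comparison used limma 3.58.1 under R 4.3.3 (two-sided, lmFit then eBayes, 2 residual and 3.28 prior degrees of freedom, Benjamini-Hochberg over all tested genes, threshold 0.05). The small number of arrays limits precision, and the p-values reflect variation among pools. The procedure was tested on simulated data.

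The members and lists were chosen with earlier results of these data known. Members with an unadjusted p under 0.05, or at least 2-fold apart without overlap, were given on every array, and the 12 genes of the wider list with the smallest p were named. Marker lists covered 12 groups of cell types. Promoter windows came from RefSeq, build GRCm38.p6, and member windows on chromosome 18 were left out. Alternatives were filters, scalings, mean of clusters, variance priors, a replicate block and each array left out.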

Additional observations from a re-analysis of the deposited data

How the results depend on the processing

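With 2 arrays per subset, calls near the threshold depend on the variance model and the filter. The count of members past the threshold was 0, and it was 2 of 29 tested with a stricter filter (Tgfbr1 and Id3) and 1 of 34 with an intensity trend (Tgfbr1). For the wider list it was 0, and 3 of 43 tested with the stricter filter and 6 of 65 with the trend. Of all tested genes, 224 of 9306 passed with the stricter filter and 308 of 13133 with the trend. Members at least 2-fold apart without overlap were 4, and 3 to 7 with 1 array left out. The 7 came without CX3CR1bright replicate 1, where 9.52% of tested genes met the rule, against 5.83% with all arrays. The 3 came without CX3CR1low replicate 1, where 7.79% met it, and without CX3CR1bright replicate 2, where 6.43% did. The member median of 0.22 was 0.35 after cyclic loess, where the median of all genes was 0.017. With 1 array left out it ran from 0.066 (without CX3CR1bright replicate 2) to 0.31, and it was 0.096 without CX3CR1low replicate 1.

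With the replicate block, 0 members and 0 genes passed, against 18 genes without it (limma, 2637 and 2467 at an unadjusted p under 0.05). Deviations of same-numbered arrays correlated at 0.155. The labels do not say whether a number marks a shared litter, so pairing of the subsets by litter is neither known nor excluded.

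Over 13 alternatives, or 12 for Tgfb2, Inhba, Ltbp1, Ltbp2 and Smad6, which the stricter filter leaves out, 21 of 34 tested members kept their sign and 13 did not under at least 1. With 1 array left out the ranges of those that crossed 0 were -0.12 to 0.34 for Tgfb2, -0.064 to 0.98 for Bmp2, -0.39 to 0.10 for Ltbp2, -0.27 to 0.40 for Ltbp3, -0.046 to 0.44 for Ltbp4, -0.25 to 0.58 for Acvrl1, -0.24 to 0.085 for Tgfbr3, -0.0030 to 0.48 for Bambi, -0.091 to 0.0030 for Smad5, -0.13 to 0.60 for Smad3 and -0.12 to 0.035 for Smad4. Scaling turned the sign of Tgfbr3 (0.028 after cyclic loess), Smad2 (0.0037 after quantile normalization and 0.031 after cyclic loess), Smad4 (0.088 and 0.099) and Tgif1 (0.017 and 0.0095). The cause was not tested.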

Other observations

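The marker lists of the other cell types gave these medians above the CX3CR1low mean. T cell markers lay at 0.96 on CX3CR1bright replicate 1 and at -0.095 on replicate 2. Mast cell markers lay at -0.46 on both, and 0 of 6 had a positive difference. Pericyte and smooth muscle markers lay at 0.0081 and 0.24, B cell markers at 0.46 and -0.074, neutrophil markers at 0.029 and -0.25, and melanocyte and Schwann cell markers at -0.055 and 0.39. Macrophage markers lay at -0.24 and -0.27. The B cell genes Cd79a and Ms4a1 and the neutrophil genes S100a8, Ly6g and Retnlg were below the array medians on all 4 arrays.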
